A study of Mus musculus with 9 samples.

Results

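The chaperonin TRiC, also called CCT, is built from 8 subunits, and their transcripts were followed in MIN6 cells given different amounts of arginine. The genes Tcp1, Cct2, Cct3, Cct4, Cct5, Cct6a, Cct7 and Cct8 were taken by symbol, whatever their values, and make up 8 of the 54876 genes in the deposited table. MIN6 cells derive from a mouse insulinoma and stand in for beta cells of the pancreas, and the labels give their strain as C57BL/6. The cells were kept for 24 h in medium with low (0.1 times), high (20 times) or standard (1 times) arginine, and total RNA was sequenced from 3 libraries of each medium, 9 in all. All groups are the same single line, with no other agent or genetic change named in the labels. The labels do not say whether the 3 libraries of a group came from separate cultures, so each p-value reflects the spread among these samples only, and that spread may be technical.

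TRiC is a barrel of stacked rings in the cytosol that takes up newly made proteins and uses ATP to close over them while they fold. Actin and tubulin are its best known clients, and beta propeller proteins such as G protein beta subunits form another large class. Every ring holds each subunit once, in a fixed order worked out in yeast and cattle, and in yeast Tcp1, Cct2, Cct4 and Cct5 bind ATP more strongly than the other members do.

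Levels are in FPKM, fragments scaled to gene length and library size. Differences are on the log2(FPKM + 1) scale from a limma fit over all genes that reached 1 FPKM in 3 or more libraries. A gene is called where its p, two-sided and adjusted by Benjamini-Hochberg over the 12300 genes tested, is under 0.05. All 8 members passed the filter on low values. Reads in genes ran from 21550637 to 26300872 per library, and the reads behind a member from 2674 for Cct4 to 15375 for Cct8. Of the beta cell markers 7 of 8 were abundant enough to test, with Ins2 at 50210 FPKM on average, and Slc2a2, the glucose transporter of mouse beta cells, was near 0 at 0.0103 FPKM on average. Markers of acinar, fibroblast, endothelial and immune cells each summed to less than 1 FPKM in all 9 libraries. The 2 delta cell markers summed to 8663 to 11250 FPKM in low, 5382 to 6161 in standard and 5675 to 5868 in high arginine, nearly all of it Sst, while Hhex averaged 0.00241 FPKM. The alpha cell markers summed to 14.6 to 17.8 FPKM in low, 23.5 to 29.8 in standard and 25.02 to 28.3 in high arginine. The PP cell marker Ppy ran from 51.6 to 58.9, 45.2 to 51.5 and 43.9 to 45.6 FPKM in the same order, and the 3 ductal markers summed to 2.11 to 2.40, 3.21 to 3.59 and 3.73 to 4.02 FPKM, with Krt19 at 0. The part of these markers in the results on TRiC was not tested. In RNA from whole cultures, fewer cells of a type and less RNA per cell cannot be told apart.

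Of the 8 members, 7 had a promoter sequence in the RefSeq table used, and Cct4, which rose in low arginine, had none. Each sequence covers 250 bases before to 50 after a transcript start on GRCm38.p6. Cct2 and Cct5 had 2 entries each, which gave 9 in all. For Cct6a and Tcp1 the start used, at 129787356 and 12916329, lies inside the gene span given below rather than at its first base. The same holds for Cct8 (87495869), Cct3 (88297135) and the second entries of Cct2 (117063375) and Cct5 (31601539). The promoters of Cct6a and Cct8, whose transcripts were higher in low arginine, and of Cct2 and Tcp1, whose transcripts were lower, are shown because they belong to members that changed in opposite directions. Capitals mark matches, on either strand, to 7 motifs: the heat shock elements GAANNTTC and TTCNNGAA, the C/EBP-ATF element TGATGNAA, the CRE half-site TGACG, the E-box CACGTG, the box CCAAT and the GC box GGGCGG. Each sequence runs 5′ to 3′ on the strand of its gene. The Cct6a promoter is chr5:129787106-129787405 on the plus strand, that of Cct8 is chr16:87495820-87496119 on the minus strand, that of Cct2 (the first of its entries) is chr10:117063803-117064102 on the minus strand, and that of Tcp1 is chr17:12916079-12916378 on the plus strand.
Cct6a: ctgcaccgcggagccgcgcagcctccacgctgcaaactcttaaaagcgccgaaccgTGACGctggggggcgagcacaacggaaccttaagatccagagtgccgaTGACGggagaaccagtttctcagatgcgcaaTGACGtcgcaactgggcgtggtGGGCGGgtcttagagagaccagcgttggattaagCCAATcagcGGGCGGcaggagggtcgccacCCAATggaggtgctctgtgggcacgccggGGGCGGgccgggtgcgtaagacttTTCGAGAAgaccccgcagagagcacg
Cct8: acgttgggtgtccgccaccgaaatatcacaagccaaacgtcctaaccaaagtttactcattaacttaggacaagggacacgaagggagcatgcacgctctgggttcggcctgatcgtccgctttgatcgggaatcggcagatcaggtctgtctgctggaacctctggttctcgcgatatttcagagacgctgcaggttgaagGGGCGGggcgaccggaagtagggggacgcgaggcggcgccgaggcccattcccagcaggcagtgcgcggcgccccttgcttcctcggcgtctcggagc
Cct2: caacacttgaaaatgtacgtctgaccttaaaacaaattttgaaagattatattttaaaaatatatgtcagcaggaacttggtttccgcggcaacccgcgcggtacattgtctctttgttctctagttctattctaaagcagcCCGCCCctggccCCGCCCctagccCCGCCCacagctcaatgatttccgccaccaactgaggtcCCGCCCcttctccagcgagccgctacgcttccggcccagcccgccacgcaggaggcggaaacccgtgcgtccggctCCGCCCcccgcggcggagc
Tcp1: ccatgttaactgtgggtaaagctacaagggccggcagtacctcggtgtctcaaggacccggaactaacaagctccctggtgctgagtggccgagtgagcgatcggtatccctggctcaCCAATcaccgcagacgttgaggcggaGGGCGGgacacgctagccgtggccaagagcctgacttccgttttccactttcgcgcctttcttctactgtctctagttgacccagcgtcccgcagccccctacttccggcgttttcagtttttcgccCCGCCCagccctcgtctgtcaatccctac

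Counting the start base as 0, the Cct6a promoter held TTCNNGAA at 24, TGACG at -194, -146 and -115, and both CCAAT and GGGCGG more than once. TGACG was in none of the other 8 entries, and it occurs in 20.8% of the 32851 promoters of the same length, with 3 or more copies in 1.03%. TTCNNGAA, present in 8.52% of all promoters, was also found in the first Cct5 entry, and GAANNTTC, present in 7.86%, only in the second Cct2 entry. Cct8, the other promoter shown of a member that was higher in low arginine, held a single match, GGGCGG at -48. That motif was in at least 1 entry of each of the 7 members and in 35.7% of all promoters, and the Cct2 promoter shown held it 5 times. Tcp1 had CCAAT at -132, a motif that 37.4% of all promoters hold and that the Cct3 and Cct7 entries held 2 and 3 times. TGATGNAA and CACGTG, in 3.97% and 7.15% of all promoters, were in none of the 9 entries. No match overlapped a match to another motif in the 4 promoters shown. These are matches of letters in a window and were not tested as binding sites.

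In low arginine the TRiC transcripts moved in both directions. Against standard arginine, Cct6a, Cct4 and Cct8 rose while Tcp1, Cct2, Cct3, Cct5 and Cct7 fell, and the libraries of both media did not overlap for any of the 8. The counts of 3 members higher and 5 lower stand against 30.3% of all tested genes called higher and 31.9% called lower, so that a called member was common by this measure. Non-overlap was as frequent, at 32.0% of tested genes higher and 33.4% lower. The median difference was -0.19 for the members and 0.001 for all tested genes, and 21.6% of tested genes differed by at least as much as Cct6a, the member that moved most. The members' median depended on scaling, at -0.07 under TPM, -0.05 under quantile normalization and -0.09 with no scale factor. The median of all tested genes was then 0.115, 0.016 and 0.085.

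**Figure D1:**
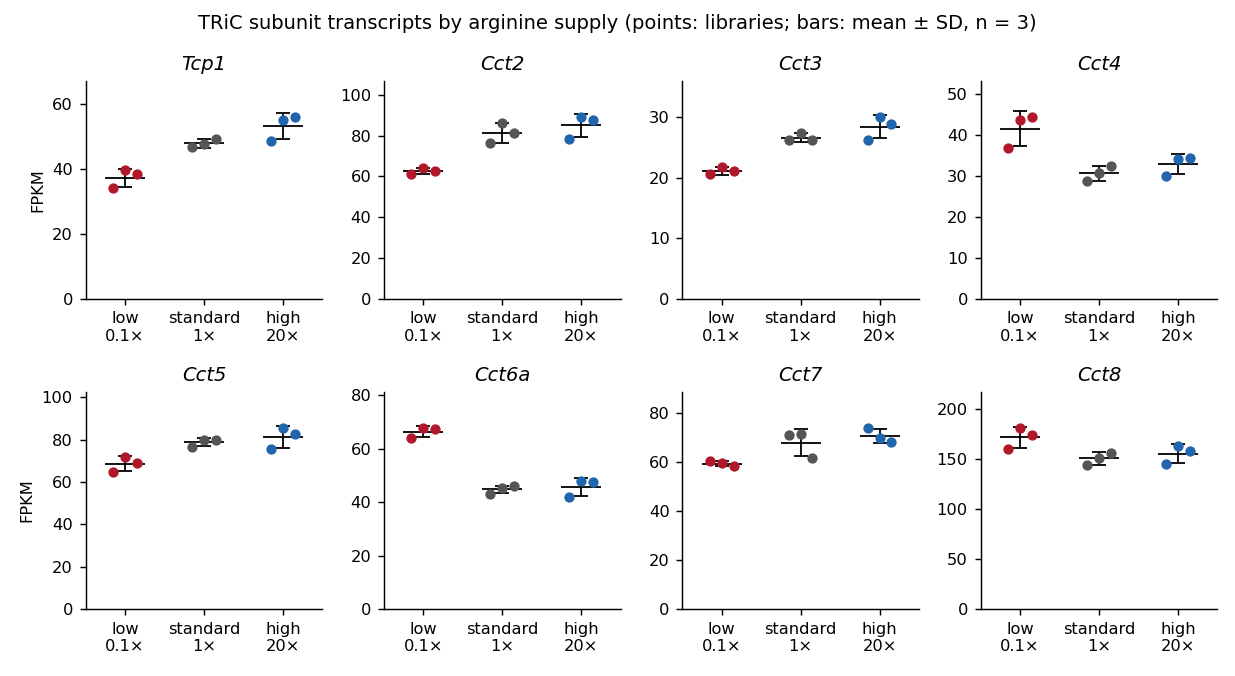
Level of each TRiC subunit transcript in FPKM (y axis, from 0) in low (0.1×), standard (1×) and high (20×) arginine; points are libraries and bars the mean ± SD of 3. Cct6a sits at 63.9 to 67.6 FPKM in low arginine, above all standard and high libraries, while Tcp1, Cct2 and Cct3 sit below them.

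Among the subunits that bind ATP strongly in yeast, 1 rose and 3 fell. Tcp1, the alpha subunit and the first to be identified, lies at chr17:12915701-12925067 on the plus strand (GRCm38, as are the gene coordinates that follow). It had 34.2, 39.5 and 38.3 FPKM in low arginine libraries 1, 2 and 3, against 46.6, 47.8 and 49.3 FPKM in the standard ones. Every low library was below every standard library, and the difference was -0.35 (SE 0.07, 95% interval -0.51 to -0.20, limma adjusted p = 0.00143). Cct2, the beta subunit, for which a role as an aggregate receptor in autophagy has been described in human cells, lies at chr10:117051001-117063814 on the minus strand. Its libraries gave 61.0, 64.3 and 62.7 FPKM in low arginine and 76.3, 86.1 and 81.0 FPKM in standard arginine. The low values were close together and all beneath the standard ones, with a difference of -0.37 (SE 0.07, interval -0.51 to -0.22, limma adjusted p = 0.000653). Cct5, the epsilon subunit, which can form rings of its own when the human protein is made in bacteria, lies at chr15:31590800-31601804 on the minus strand. It measured 64.9, 72.0 and 68.9 FPKM in low arginine, against 76.5, 79.7 and 80.0 FPKM in standard arginine. The gap between the groups was narrower than for Tcp1 and Cct2, and the difference was -0.20 (SE 0.06, interval -0.34 to -0.06, limma adjusted p = 0.0172). Without low library 1 it was -0.16 and no longer called (limma adjusted p = 0.062), and it was -0.07, -0.04 and -0.09, also not called, under TPM, quantile normalization and no scale factor. Cct4, the delta subunit, in which a mutation causes a sensory neuropathy in rats, went the other way. It lies at chr11:22990519-23003780 on the plus strand and had 36.8, 43.7 and 44.4 FPKM in low arginine, against 28.9, 30.7 and 32.3 FPKM in standard arginine. Low library 1 was the lowest of its group yet above all standard libraries, and the difference was 0.43 (SE 0.08, interval 0.24 to 0.61, limma adjusted p = 0.00123).

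Of the members that bind ATP more weakly in yeast, 2 rose and 2 fell. Cct6a, the zeta subunit, lies at chr5:129786998-129846371 on the plus strand and is annotated as a processed transcript. It had 63.9, 67.6 and 67.3 FPKM in low arginine, against 43.1, 45.1 and 46.0 FPKM in standard arginine. The 2 groups were far apart next to their spread, with means of 66.3 ± 2.10 FPKM in low arginine and 44.7 ± 1.46 FPKM in standard arginine (SD, n = 3 each), and the difference of 0.56 was the widest of the members (SE 0.06, interval 0.42 to 0.70, limma adjusted p = 2.46e-05). Cct8, the theta subunit and the neighbour of Cct6a in the ring, is known from Caenorhabditis elegans to promote assembly of the complex when made in excess. It lies at chr16:87483326-87495873 on the minus strand and had 160.0, 180.6 and 174.1 FPKM in low arginine, against 143.9, 151.2 and 156.0 FPKM in standard arginine. Low library 1 lay just above the highest standard library, and the difference was 0.19 (SE 0.07, interval 0.04 to 0.34, limma adjusted p = 0.0299). Cct3, the gamma subunit, lies at chr3:88297116-88321767 on the plus strand. It had 20.6, 21.9 and 21.1 FPKM in low arginine, against 26.3, 27.5 and 26.2 FPKM in standard arginine, with little spread in either, and the difference was -0.32 (SE 0.06, interval -0.45 to -0.19, limma adjusted p = 0.00086). Cct7, the eta subunit, sits between Cct5 and Cct8 in the ring and lies at chr6:85451514-85468475 on the plus strand. It had 60.4, 59.3 and 58.1 FPKM in low arginine, against 70.9, 71.2 and 61.4 FPKM in standard arginine. Standard library 3 nearly reached the low values, and the difference was -0.19 (SE 0.07, interval -0.33 to -0.04, limma adjusted p = 0.0279). The calls of Cct7 and Cct8 were near the threshold. Leaving out low library 2, low library 3, standard library 1 or standard library 2 gave Cct7 differences of -0.19, -0.17, -0.16 and -0.15 and Cct8 differences of 0.15, 0.18, 0.16 and 0.19, with limma adjusted p between 0.0578 and 0.113. Cct7 was also not called under TPM, quantile normalization and no scale factor, at -0.07, -0.06 and -0.09, while Cct8 was called under all 3, at 0.31, 0.38 and 0.29. Both lost their call when genes of any level were tested (limma adjusted p = 0.0525 for Cct7 and 0.0678 for Cct8). Tcp1, Cct2, Cct3, Cct4 and Cct6a were called in low against standard arginine under all 20 alternatives run.

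Summed over the 8 members, the libraries held 502, 549 and 535 FPKM in low arginine, against 513, 539 and 532 FPKM in standard arginine, and the 2 groups overlapped. The sums depend on the scale factor in FPKM, which lowers values most in the low arginine libraries. TRiC reads, scaled to equal reads in genes without that factor, averaged 2141 ± 89.6 in low and 2023 ± 50.2 in standard arginine. Their ranges, 2038 to 2196 in low and 1976 to 2076 in standard arginine, overlapped as well. These reads are not divided by gene length. With the factor, the mean sums were 528 ± 24.2 FPKM for low arginine and 528 ± 13.8 FPKM for standard arginine (SD, n = 3 each). The share of that sum from Cct4, Cct6a and Cct8 was 52.9 ± 0.794% in low and 42.8 ± 1.10% in standard arginine, which describes the members that rose, is no separate test and, like the sum, rests on the gene lengths used. Ratios within a library do not depend on a single scale factor per library, though quantile normalization can change them. Cct6a over Tcp1 was 1.71 to 1.87 in low and 0.925 to 0.944 in standard arginine, and Cct4 over Cct3 was 1.79 to 2.11 in low and 1.10 to 1.24 in standard arginine. These ratios set a member that rose over one that fell, so they restate the differences above and are no separate test. Cct8 over Cct7, again such a pair, was 2.65 to 3.04 in low and 2.03 to 2.54 in standard arginine, and Cct2 over Cct5, both of which fell, was 0.893 to 0.940 in low and 0.997 to 1.08 in standard arginine. In high arginine Cct6a over Tcp1 was 0.848 to 0.871, below the standard range, and Cct4 over Cct3 was 1.14 to 1.19, inside it. Neither Cct6a nor Tcp1 was called in high against standard arginine, where 18.5% of all tested genes did not overlap. Replicate 1 had the lowest sum in each of the 3 groups.

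**Figure D2:**
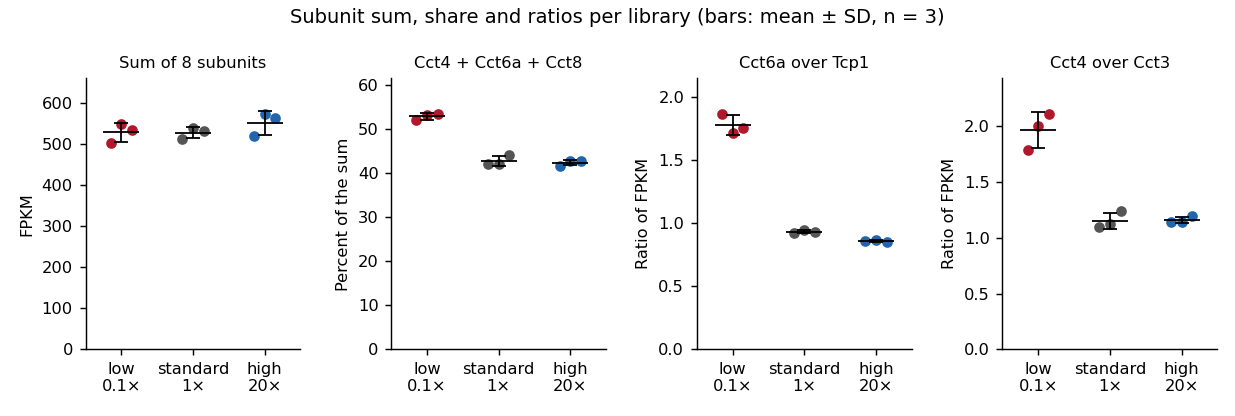
Per library, in low, standard and high arginine: the sum of the 8 subunits in FPKM, the percent of it from Cct4, Cct6a and Cct8, and the FPKM ratios Cct6a over Tcp1 and Cct4 over Cct3 (points are libraries, bars the mean ± SD of 3, y axes from 0). The sums overlap while the share and both ratios in low arginine lie above all other libraries.

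No TRiC member was called in high against standard arginine, with 0 of 8 at an unadjusted limma p under 0.05, against 14.3% of all tested genes at that p. Only 0.138% of tested genes were called higher and 0.171% lower in this comparison. All 8 differences were above 0, from 0.03 for Cct6a to 0.15 for Tcp1, with a median of 0.06 against 0.014 over all tested genes, and every member's libraries overlapped between these media. Among the 20 alternatives the difference reached below 0, without a call, for Cct6a (-0.0051) and Cct7 (-0.0108). Tcp1 came nearest to a call, with 48.7, 55.0 and 55.9 FPKM in high arginine, against 46.6, 47.8 and 49.3 FPKM in standard arginine. High library 1 lay within the standard values and the others above them, and the difference was 0.15 (interval -0.01 to 0.30, limma adjusted p = 0.38). Array weights, which are library weights estimated by limma, called 713 genes higher and 610 lower in this comparison. With them Tcp1 differed by 0.20 and was called (limma adjusted p = 0.0473). The intervals of the other 7 members all held 0. They reached at most 0.29 upward, for Cct4, which had 30.0, 34.3 and 34.5 FPKM in high arginine, against 28.9, 30.7 and 32.3 FPKM in standard arginine. Its high libraries 2 and 3 were above the standard range and library 1 was inside it. Cct2 had 78.4, 88.9 and 87.4 FPKM in high arginine and Cct3 had 26.3, 30.0 and 29.0 FPKM, both reaching above the standard libraries given earlier while library 1 stayed among them. Cct5 had 75.6, 85.5 and 82.5 FPKM in high arginine, Cct6a 41.9, 47.9 and 47.4 FPKM, and Cct8 144.3, 162.7 and 158.1 FPKM. In the first 2 of these, library 1 fell beneath all standard libraries and the others above them. Cct7 had 73.7, 69.7 and 68.2 FPKM in high arginine, of which library 1 exceeded all its standard values and the others lay among them.

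High against low arginine, which uses the same low libraries and so is not independent of the first comparison, gave 5 members higher and 2 lower. Over all tested genes 32.3% were called higher and 29.2% lower, and the median difference was 0.24 for the members and 0.01 for all tested genes. The members' median here was 0.12 under TPM, 0.08 under quantile normalization and 0.13 with no scale factor. This comparison is also the test of whether the responses to high and low arginine differ, as both are taken against the same standard libraries. Tcp1 differed by 0.50 (interval 0.34 to 0.66, limma adjusted p = 0.000136), with means of 53.2 ± 3.95 FPKM in high and 37.3 ± 2.79 FPKM in low arginine (SD, n = 3 each). Cct2 and Cct3 were higher by 0.43 and 0.41, and Cct7 and Cct5 by 0.25 and 0.24. In the opposite direction Cct6a differed by -0.53 (interval -0.67 to -0.39, limma adjusted p = 3.53e-05), with means of 45.7 ± 3.34 FPKM in high and 66.3 ± 2.10 FPKM in low arginine. Cct4 differed by -0.33 (interval -0.51 to -0.14, limma adjusted p = 0.00616). Cct8 overlapped between these media and was not called, at -0.15 (interval -0.29 to 0.00, limma adjusted p = 0.0806). It was called without low library 1, at -0.19 (limma adjusted p = 0.0338), and under TPM, quantile normalization and no scale factor, at -0.27, -0.36 and -0.26. It was also called with library weights (limma adjusted p = 0.0311) and with a replicate block (limma adjusted p = 0.0101). Each of the 3 high libraries was lower than the low library of the same number, a pairing that the labels do not name. Cct5 was not called under those 3 scalings, at 0.12, 0.05 and 0.12, and Cct7 not under TPM and quantile normalization, at 0.12 and 0.10.

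**Figure D3:**
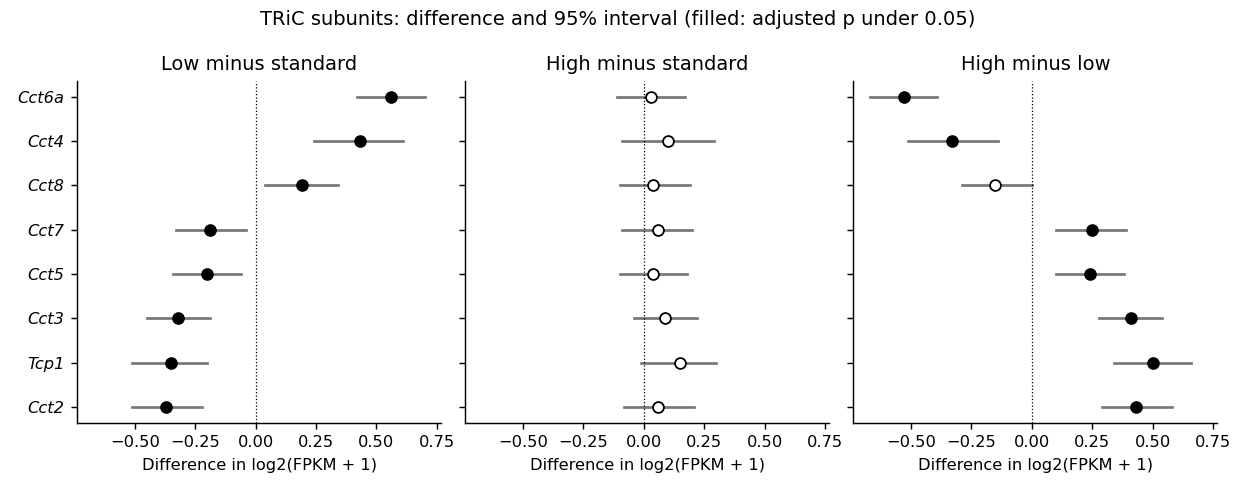
Difference in log2(FPKM + 1) with its 95% interval for each subunit in low minus standard, high minus standard and high minus low arginine; filled points have a limma adjusted p under 0.05. Cct6a, Cct4 and Cct8 lie right of 0 in the first panel and the other 5 left of it, no point is filled in the second, and the third runs opposite to the first.

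The order of the subunits by level changed with low arginine. In standard and in high arginine the order by mean FPKM was Cct8, Cct2, Cct5, Cct7, Tcp1, Cct6a, Cct4 and Cct3, and in low arginine it was Cct8, Cct5, Cct6a, Cct2, Cct7, Cct4, Tcp1 and Cct3. Cct6a thus had rank 3 in low arginine and rank 6 in standard arginine, and Tcp1 rank 7 in low and rank 5 in standard arginine. Some neighbours in these orders had ranges that overlapped, namely Cct5 and Cct6a, Cct6a and Cct2, and Cct4 and Tcp1 in low arginine, Cct2 and Cct5 in standard arginine, and Cct2 and Cct5 as well as Cct4 and Cct3 in high arginine. Within single libraries these pairs kept the order of their means in 3 of 3, apart from Cct2 and Cct5 in standard arginine, with 2 of 3. These levels divide by the deposited gene length, which joins all annotated exons and was 1.29 times the longest coding transcript for Cct8 but 2.78 times for Cct7 and 3.22 times for Cct3. Divided by that transcript instead, a choice made after seeing the data, the standard arginine level of Cct7 was 188 ± 15.4 and that of Cct8 194 ± 7.85 (SD, n = 3 each). On this scale Cct7 had rank 2 and not 4 in standard arginine, Cct3 had rank 6 and not 8, and Cct4 was last at 51.8 ± 2.93. No transcript of Cct6a is annotated as coding in GENCODE M21, so its longest transcript was used. The ratio of 1 member's levels between media does not depend on the length chosen, whereas sums over members and comparisons between members do.

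**Figure D4:**
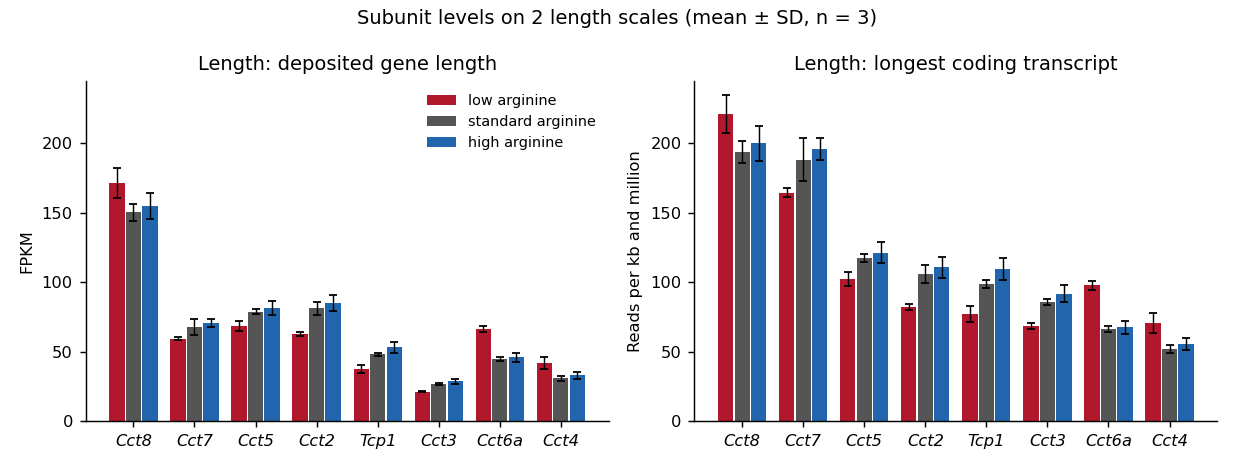
Mean level ± SD (n = 3) of each subunit in low, standard and high arginine, divided by the deposited gene length (left, FPKM) or by the longest coding transcript (right, same scale otherwise; longest transcript for Cct6a), y axes from 0. Cct8 leads on both scales, while Cct7 moves up to a standard arginine mean of 188 on the right, against 67.8 on the left.

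Over the 9 libraries, members that changed in the same direction followed each other. Pearson's r of log2(FPKM + 1) was 0.87 to 0.96 in the 3 pairs among Cct4, Cct6a and Cct8, and 0.63 to 0.99 with a median of 0.96 in the 10 pairs among the other 5. In the 15 mixed pairs it was -0.88 to -0.33. These r values describe 9 libraries in 3 groups and carry the group differences above. Taking the mean of the 8 standardized members as a profile, the most similar of 7010 protein-coding genes were Bccip, Fbxo8, Vamp3, Rfc3, Dnajc9, Impa1, Mrpl13 and Zfp706, with r from 0.944 to 0.983. This mean joins members that rose and members that fell in low arginine, so their differences partly offset each other in it. Bccip, for example, averaged 31.3 ± 3.2 FPKM in low, 33.1 ± 2.0 FPKM in standard and 36.4 ± 4.0 FPKM in high arginine (SD, n = 3 each). For the 5 members that fell, the closest genes were Plpp1, Tsg101, Nsmce3, Ppa1 and Dhrs4 (r from 0.990 to 0.994), and for the 3 that rose Cops3, Paip2, Lsm8, Smim18 and Msantd4 (r from 0.991 to 0.994). These last lists were added after the members' values were seen.

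Several members share ground with other genes, and whether counting used strand could not be learned from the labels or notes, so reads in shared exons are uncertain. Cct6a shares the most with a single other gene as a percent of its exonic bases. Its start lies inside the minus-strand gene Psph (chr5:129765558-129787449), the phosphatase of serine synthesis. Their spans share 452 bases, all exonic, which make up 12.5% of the exonic bases of Cct6a, and the whole Cct6a promoter printed above lies within the span of Psph. Psph averaged 51.8 ± 4.05 FPKM in low arginine and 29.2 ± 1.63 FPKM in standard arginine (SD, n = 3 each), higher by 0.81 (SE 0.07, limma adjusted p = 3.29e-06), in the same direction as Cct6a. On the other side of Cct6a, 614 bases past its end on the same strand, Sumf2 was lower, with means of 8.08 ± 0.0773 FPKM in low arginine, against 13.1 ± 1.57 FPKM in standard arginine (-0.63, limma adjusted p = 4.45e-05). Pradc1 shares 457 bases with Cct7 on the opposite strand, of which 214 are exonic in both and make up 3.16% of the exonic bases of Cct7. It was lower too, by -0.47 (limma adjusted p = 0.000204), with means of 16.5 ± 1.33 FPKM in low arginine and 23.3 ± 1.51 FPKM in standard arginine. Usp16 shares 192 exonic bases with Cct8, 6.22% of the exonic bases of Cct8, and Mrpl18 shares 141 with Tcp1, 2.80%. Neither Usp16 nor Mrpl18 was called in low against standard arginine (-0.07 and -0.10). The Tcp1 promoter printed above begins inside the span of Mrpl18 (chr17:12911349-12916345). Acat3 covers 11.4% of the exonic bases of Tcp1 but had under 1 FPKM. Within 1000 bases of Cct5, Cmbl differed by 0.21 (limma adjusted p = 0.0294) and Fam173b by -0.09 without a call. Small RNA genes inside Tcp1 and Cct6a had at most 4 reads in any library, Tsacc near Cct3 and B130034C11Rik near Cct8 were too low to test, and Cct2 and Cct4 had no gene within 1000 bases. The part of shared reads in the members' differences was not tested. The 2 pseudogene entries of members in the table, Tcp1-ps1 and Cct3-ps1, were at 0 in all 9 libraries, as was the germline paralog Cct8l1, and the testis paralog Cct6b averaged 0.326 FPKM in low arginine and 0.314 FPKM in standard arginine.

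Genes of factors that work with TRiC moved in both directions in low against standard arginine, where 30.3% of all tested genes were called higher and 31.9% lower, so that counts like those below are common. Prefoldin, which carries nascent actin and tubulin to TRiC, had 3 of 6 subunits higher and 3 lower, with a median of 0.12. Pfdn6 averaged 160.5 ± 4.53 FPKM in low arginine and 88.9 ± 5.59 FPKM in standard arginine (SD, n = 3 each), higher by 0.85 (limma adjusted p = 1.02e-06), and Pfdn2 was higher by 0.48. Pfdn4 was higher by 0.39 (limma adjusted p = 0.0307), though its libraries overlapped between these media. Vbp1, another prefoldin subunit, averaged 43.9 ± 2.81 FPKM in low arginine and 72.6 ± 9.80 FPKM in standard arginine and fell by 0.71 (limma adjusted p = 8.61e-05). The other 2 that were lower, Pfdn1 (-0.28) and Pfdn5 (-0.15), were not called under TPM, quantile normalization or no scale factor, and Pfdn5 was at 0.01 under quantile normalization. Phosducin-like proteins bind TRiC and assist the folding of its clients. Of the 2 tested of 3, Pdcl, needed for G protein beta subunits, differed by -0.88 (limma adjusted p = 7.53e-06) and Pdcl3 by 0.41 (limma adjusted p = 0.00195). The R2TP and prefoldin-like complex, which assembles large complexes, had 4 of 9 higher and 2 lower, with a median of 0.20. The higher ones were Pdrg1 (0.94), Wdr92 (0.63), Uri1 (0.57) and Ruvbl1 (0.43), the lower ones Uxt (-0.58) and Pih1d1 (-0.49), and under TPM, quantile normalization and no scale factor Polr2e joined as a further higher one (5 and 2). Hsf1, a transcription factor that drives chaperone genes under heat shock, averaged 10.6 ± 0.487 FPKM in low arginine and 6.20 ± 0.433 FPKM in standard arginine, higher by 0.69 (limma adjusted p = 4.19e-06), and Hsf2 was higher by 0.48. The mitochondrial chaperonin, Hspd1 and its lid Hspe1, had 0 of 2 called, with 0 at an unadjusted p under 0.05, at 0.02 and -0.09. The chaperonin-like proteins of Bardet-Biedl syndrome, Mkks, Bbs10 and Bbs12, had 0 of 3 called, with 2 at an unadjusted p under 0.05, at -0.17, 0.24 and 0.12. Bbs10 was called higher under TPM, quantile normalization and no scale factor, at 0.43, 0.26 and 0.3 (limma adjusted p = 0.0251, 0.037 and 0.025).

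Transcripts of the main clients fell together in low arginine. All 12 tested of 15 alpha and beta tubulins were lower than in standard arginine, with a median of -1.42 against 0.001 over all tested genes. Tuba1a had the widest difference, with 36.9 ± 1.82 FPKM in low arginine and 184.0 ± 14.9 FPKM in standard arginine (-2.28, limma adjusted p = 6.2e-09, SD, n = 3 each). Tuba1c differed by -2.11, Tubb4b by -1.77 and Tuba4a by -1.46. The most abundant, Tubb5, averaged 178.4 ± 5.67 FPKM in low arginine and 404.5 ± 30.6 FPKM in standard arginine, lower by -1.17 (limma adjusted p = 1.23e-07), Tuba1b by -1.38 and Tubb6 by -1.47. Under TPM and no scale factor Tubb2b lost its call, which left 11 lower. The gamma, delta and epsilon tubulins, which nucleate microtubules or act at centrioles, had 0 of 4 higher and 3 lower, with Tubg2 at -0.99, Tubg1 at -0.70 and Tubd1 at -0.42. Both actins with enough reads, Actb with 83.0 ± 2.14 FPKM in low arginine and 161.9 ± 9.65 FPKM in standard arginine (-0.95, limma adjusted p = 3.2e-07) and Actg1 (-0.77), were lower, of 6 listed. Tubulins and actins are families of near copies with pseudogenes, so the split of reads between their members is uncertain. The cofactors that take tubulin onward from TRiC had 2 of 7 higher and 3 lower, with Tbcb at -1.06, Tbce at 0.51 and Tbcel at 0.43. The other lower ones, Arl2 (-0.29) and Tbcd (-0.28), depended on scaling, with counts of 3 higher and 1 lower under TPM, 3 and 2 under quantile normalization and 2 and 2 with no scale factor. Among G protein beta subunits, 2 of 3 tested were lower, Gnb1 at -0.25 and Gnb2 at -0.36. Of 12 other clients, 3 were higher and 2 lower: Ppp2r2a and Vhl each differed by 0.78 and Rptor by 0.43, and Plk1, a mitotic kinase, by -0.74 and Aaas by -0.21. Aaas was not called under TPM, quantile normalization or no scale factor, which gave 7, 4 and 5 higher and 1 lower each. No gene on any of these lists was called in high against standard arginine, where the tubulin median was 0.08 and Tubb2a, at 0.35, came nearest (limma adjusted p = 0.0645). Under TPM 1 gene of these lists, Tubg1, was called in that comparison, at 0.28 (limma adjusted p = 0.0468). In high against low arginine, all 12 tested alpha and beta tubulins were higher, with a median of 1.56.

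**Figure D5:**
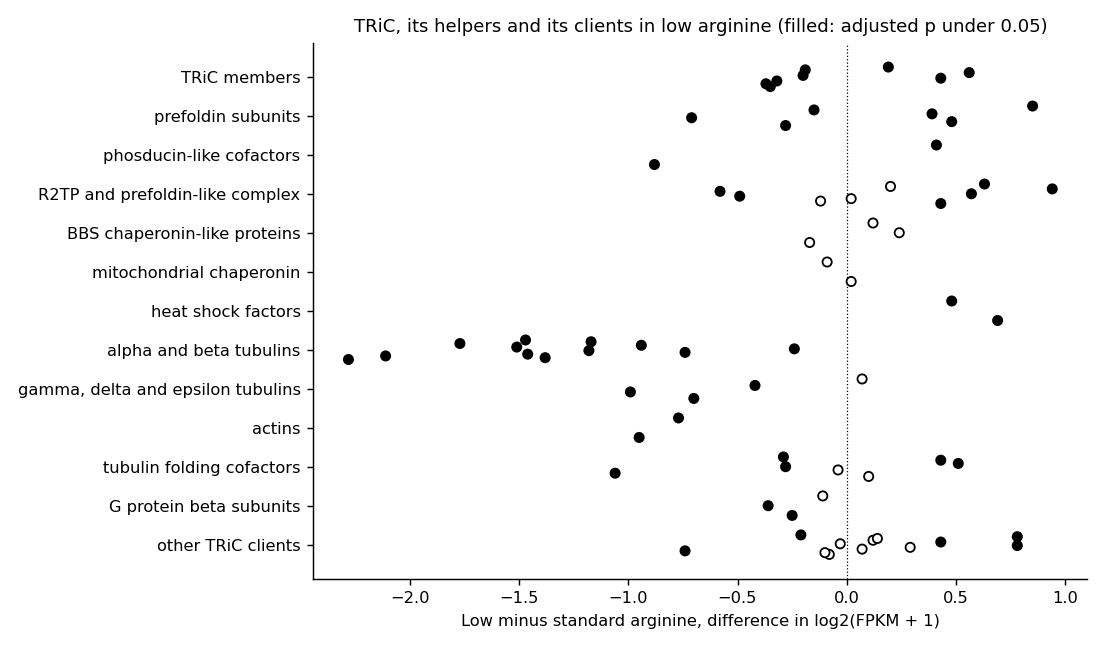
Difference in log2(FPKM + 1) between low and standard arginine (x axis) for every tested gene of TRiC, its helper and its client lists (rows; points are spread vertically only to be seen), filled where the limma adjusted p is under 0.05. Alpha and beta tubulins and actins all lie left of 0, while the subunits of TRiC and prefoldin lie on both sides.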

How the data were processed

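RNA from 9 MIN6 libraries, 3 for each arginine supply, was compared, with groups and replicate numbers from the labels. FPKM per gene was deposited by the authors beside a gene length, per the file headers. A directional kit was used, per the labels' protocols. CASAVA 1.8, HISAT2 2.0.5 and featureCounts 1.5.0-p3 are named in the submitters' processing notes, and their settings, strand included, are not given in the sources. The build in the notes is mm9, yet all 8 members, and 98.33% of 54409 shared IDs, have the GRCm38 coordinates of GENCODE M21. FPKM times gene length came out as whole reads in 100% of values, to within 0.01 reads, so reads in genes, from 21550637 to 26300872 per library, were rebuilt for depth, scaling and voom weights. The library size behind FPKM was 0.962 to 1.08 times these reads, so a scale factor is already in the values, lowering FPKM most in the low arginine libraries. There were 0 unused columns of per-sample values.

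The filter, 1 FPKM in 3 or more of 9 libraries, kept 12300 genes, 10771 of them protein-coding. With limma 3.58.1 (R 4.3.3), log2(FPKM + 1) was fitted on group alone, leaving 6 residual degrees of freedom, with a variance trend. Changes of low genes are understated on this scale. Two-sided p-values were adjusted by Benjamini-Hochberg across the genes tested. Tables and plots used Python 3.11.15 with pandas 2.3.3. The procedure was tested on simulated data. Replicates differed by more than sampling noise (chi-square per degree of freedom 2.68 to 13.6). Deviations from group means correlated between same-numbered high and low libraries, with r of 0.15 to 0.24. Same-numbered pairs with standard libraries did not all do so. The labels name no shared culture or day. Libraries with different numbers were not compared, so these r values cannot show that the numbers pair the libraries. Alternatives covered pseudocount 0.1, no filter, a mean FPKM of at least 5, TPM computed from FPKM, quantile normalization, no scale factor, 2 groups at a time, no variance trend, array weights, a replicate block, voom weights and leaving out each library.

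All members are named. Of other lists, the text names called genes with the smallest p in low against standard arginine (up to 3) and those with a mean FPKM of at least 100. In several lists further members are named too. Neighbours are genes within 1000 bases, and similar genes those with the highest r among protein-coding genes with a mean FPKM of at least 5. The members and lists were chosen with earlier results of these data known. Promoters come from RefSeq, build GRCm38.p6.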

Additional observations from a re-analysis of the deposited data

How the results depend on the processing

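Of 480 member differences over 20 alternatives, 451 kept their call or lack of one, 22 lost the call and 7 gained it. Differences called in either fit changed direction in 0 cases. Uncalled ones of Cct6a and Cct7 in high against standard arginine fell below 0 in at least 1 alternative. TPM, quantile normalization and no scale factor left 3 members lower in low against standard arginine, in place of 5. TPM and quantile normalization left 3 higher in high against low arginine, in place of 5. TPM moved the median of all genes to 0.115 in low against standard arginine and to -0.104 in high against low arginine. Library weights gave 1 member higher in high against standard arginine, Tcp1, in place of 0. Over all genes, high against standard arginine had 17 higher and 21 lower. No filter gave 4 and 2, fitting 2 groups at a time 0 and 0 (1669 genes at an unadjusted limma p under 0.05), array weights 713 and 610, voom weights 40 and 34, and a minimum mean of 5 FPKM 26 higher. Leaving out single libraries gave 0 to 26 higher and 0 to 35 lower. That minimum, with fewer genes tested, gave 2328 higher in low against standard arginine (3723 otherwise) and 2190 lower in high against low arginine (3594 otherwise). The cause of the other changes was not tested. Deviations of same-numbered libraries correlated with r of -0.04 to 0.24, over 0.1 in 6 of 9 pairs, and libraries with different numbers were not compared. All 3 pairs of high with low arginine were over 0.1, and not all of those with standard arginine. With a replicate block 46 and 42 genes were called in high against standard arginine, 3 members were higher and 5 lower in low against standard arginine, 0 were called in high against standard arginine, and Cct8 joined Cct4 and Cct6a as lower in high against low arginine (limma adjusted p = 0.0101). The block changed no other member's call. The level of each member changed when divided by the longest coding transcript. With 3 libraries a group, member differences of about 0.19 were near the limit of what was called.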
